A study of Homo sapiens with 12 samples.

Results

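The neurogenic basic helix-loop-helix (bHLH) genes are 9 genes, NEUROG1, NEUROG2, NEUROG3, ATOH1, NEUROD1, NEUROD2, OLIG1, OLIG2 and OLIG3, out of 20037 protein-coding genes on the chromosomes. They were taken by name, and each was examined as its RefSeq gene body with 20 kb added on either side, called its window. The study measured chromatin in HepG2/C3A cells, a human hepatocellular carcinoma line, by CUT&Tag, in which an antibody brings a transposase to chromatin and the released fragments are sequenced. Control cells and cells given sodium succinate at 10 mM were both collected at 48 hours, in the same serum-supplemented medium, and the deposited design calls the control a vehicle. Antibodies recognised trimethylated lysine 27 of histone H3 (H3K27me3) or succinylated lysine on any protein (Ksu). Every antibody was used on 2 biological replicates of each treatment, and each of the 8 libraries has its own peak list. Coordinates are on GRCh38 (hg38). What sets biological replicates apart is not stated, so the spread between them may be partly technical. The 4 IgG samples were not analysed here.

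Proteins of this family bind DNA as dimers with E proteins at short sequences called E-boxes and start neuronal or glial programmes. NEUROG and ATOH1 factors commit progenitors, NEUROD factors act later in differentiating neurons, and OLIG factors pattern the spinal cord and specify motor neurons and oligodendrocytes. Polycomb repressive complex 2 places H3K27me3, and genes for developmental regulators of other lineages commonly carry broad H3K27me3 domains in differentiated cells. Lysine succinylation is an acyl mark formed from succinyl-CoA.

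The libraries differed in how low a signal entered their lists. H3K27me3 lists held 19133 and 5813 peaks in control replicates 1 and 2 and 9985 and 5531 in succinate replicates 1 and 2. Ksu lists held 76702 and 382019 peaks in the controls and 294568 and 629903 in succinate. The lowest total signal of a listed peak, counted in each library's own signal step, differed 6.36-fold between H3K27me3 libraries and 183-fold between Ksu libraries. Control replicate 1 had the lowest such floor of the H3K27me3 libraries and succinate replicate 2 the highest. Read depth is unknown for these lists, so no counting interval is given. With 2 libraries against 2, the smallest two-sided exact permutation p is 0.333, and no difference between treatments could reach 0.05. Treatments are therefore compared by whether their libraries overlapped and by the pooled SD. The labelled cell type was checked on hepatocyte genes only as chromatin, since expression was not measured. Of 10 hepatocyte markers, 8 had no H3K27me3 peak over their window in any library, APOB had one in 4 libraries and HNF4A in 3. Of all 20037 windows, 58% had none in any library, so this count does not by itself identify the cell type.

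The promoters below are shown because H3K27me3 peaks covered the first pair in 4 of 4 libraries and the second pair in control replicate 1 alone. Each runs 5′ to 3′ over 300 bases, 250 before and 50 after the gene start, on the minus strand, from RefSeq on GRCh38.p14, with every CpG in capitals. NEUROD2 lies at chr17:39607871-39608170, NEUROG2 at chr4:112516131-112516430, NEUROD1 at chr2:181680468-181680767 and NEUROG1 at chr5:135535915-135536214.
NEUROD2: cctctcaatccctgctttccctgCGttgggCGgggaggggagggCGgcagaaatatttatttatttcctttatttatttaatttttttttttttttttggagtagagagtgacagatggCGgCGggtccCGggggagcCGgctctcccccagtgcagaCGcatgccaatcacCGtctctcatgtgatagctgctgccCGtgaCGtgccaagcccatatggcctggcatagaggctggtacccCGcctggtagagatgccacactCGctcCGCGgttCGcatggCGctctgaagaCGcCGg
NEUROG2: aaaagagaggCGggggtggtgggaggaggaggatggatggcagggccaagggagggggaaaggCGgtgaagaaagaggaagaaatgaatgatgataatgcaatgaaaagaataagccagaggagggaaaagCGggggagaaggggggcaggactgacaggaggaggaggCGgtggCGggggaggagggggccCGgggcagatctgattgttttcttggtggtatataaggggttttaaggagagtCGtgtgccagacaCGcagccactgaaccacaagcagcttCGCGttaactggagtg
NEUROD1: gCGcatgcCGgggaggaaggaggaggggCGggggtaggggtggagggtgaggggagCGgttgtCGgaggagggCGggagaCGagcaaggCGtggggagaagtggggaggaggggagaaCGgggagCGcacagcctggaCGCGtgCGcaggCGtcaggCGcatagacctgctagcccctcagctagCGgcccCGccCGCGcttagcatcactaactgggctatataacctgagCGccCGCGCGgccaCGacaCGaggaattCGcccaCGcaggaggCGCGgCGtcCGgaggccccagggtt
NEUROG1: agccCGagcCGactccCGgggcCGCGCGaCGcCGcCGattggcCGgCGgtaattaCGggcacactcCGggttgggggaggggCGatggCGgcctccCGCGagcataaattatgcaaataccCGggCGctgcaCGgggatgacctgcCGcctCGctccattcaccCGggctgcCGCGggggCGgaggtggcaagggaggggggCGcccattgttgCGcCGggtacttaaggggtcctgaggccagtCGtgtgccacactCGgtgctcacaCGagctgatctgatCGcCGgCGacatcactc

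A promoter was listed for 7 of the 9 genes, OLIG1 and OLIG2 being the others. H3K27me3 peaks covered the promoters of NEUROG2, NEUROG3, NEUROD2 and OLIG3 in full in 4 of 4 libraries, where 7.35% of 15843 protein-coding promoters were overlapped by a peak in 4 of 4. Those of NEUROG1, NEUROD1 and ATOH1 were covered in full in control replicate 1 and not at all in the other 3 libraries. Covered promoters thus numbered 7 of 7 in control replicate 1, where 15.3% of all promoters were overlapped. They numbered 4 of 7 in control replicate 2 (8.47% of all), succinate replicate 1 (12.7%) and succinate replicate 2 (10.1%). CpG number did not separate these groups. The covered promoters held 10 (NEUROG2), 31 (NEUROG3), 19 (NEUROD2) and 10 (OLIG3), and the others 35 (NEUROG1), 31 (NEUROD1) and 22 (ATOH1), where the median promoter held 22. Over all promoters, 6.5% of those with 15 or more CpG and 8.96% of those with fewer were overlapped by H3K27me3 in 4 of 4 libraries. The E-box letters CANNTG, which read the same on both strands, occurred in 3 of the 7 promoters, those of NEUROD2 (3 times), NEUROG3 (1) and ATOH1 (1), and in 64.5% of all promoters. CATATG, one form of CANNTG, was found in NEUROD2 and ATOH1 and in 1.84% of all promoters. CAGCTG, another form, was found in NEUROG3 and in 17.7% of all promoters. CAGATG or its reverse CATCTG, also forms of CANNTG, was found in NEUROD2 and in 11.7% of all promoters.

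H3K27me3 lay over most of the 9 genes in these liver-derived cells. A peak overlapped the window in 4 of 4 libraries for 6 genes (NEUROG2, NEUROG3, NEUROD2, OLIG1, OLIG2 and OLIG3), against 20.8% of all 20037 windows. None of the 9 lacked a peak in every library, as 58% of windows did. For the same 6 genes a peak overlapped the gene body itself in 4 of 4 libraries, against 12.3% of all gene bodies and 10.9% of the 6883 gene bodies of 13 kb or less, the size range of the 9. Among them 5 gene bodies, all but that of NEUROG2, were covered from end to end in 4 of 4 libraries, against 2.72% of all bodies and 6.22% of bodies of that size. In the other 3 genes, NEUROG1, NEUROD1 and ATOH1, the body was touched only in control replicate 1, the library with the most peaks and the lowest floor. Peaks covered 42.1% and 28.8% of the 392594 bases of the windows in the controls and 34.9% and 29.3% in succinate.

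**Figure D1:**
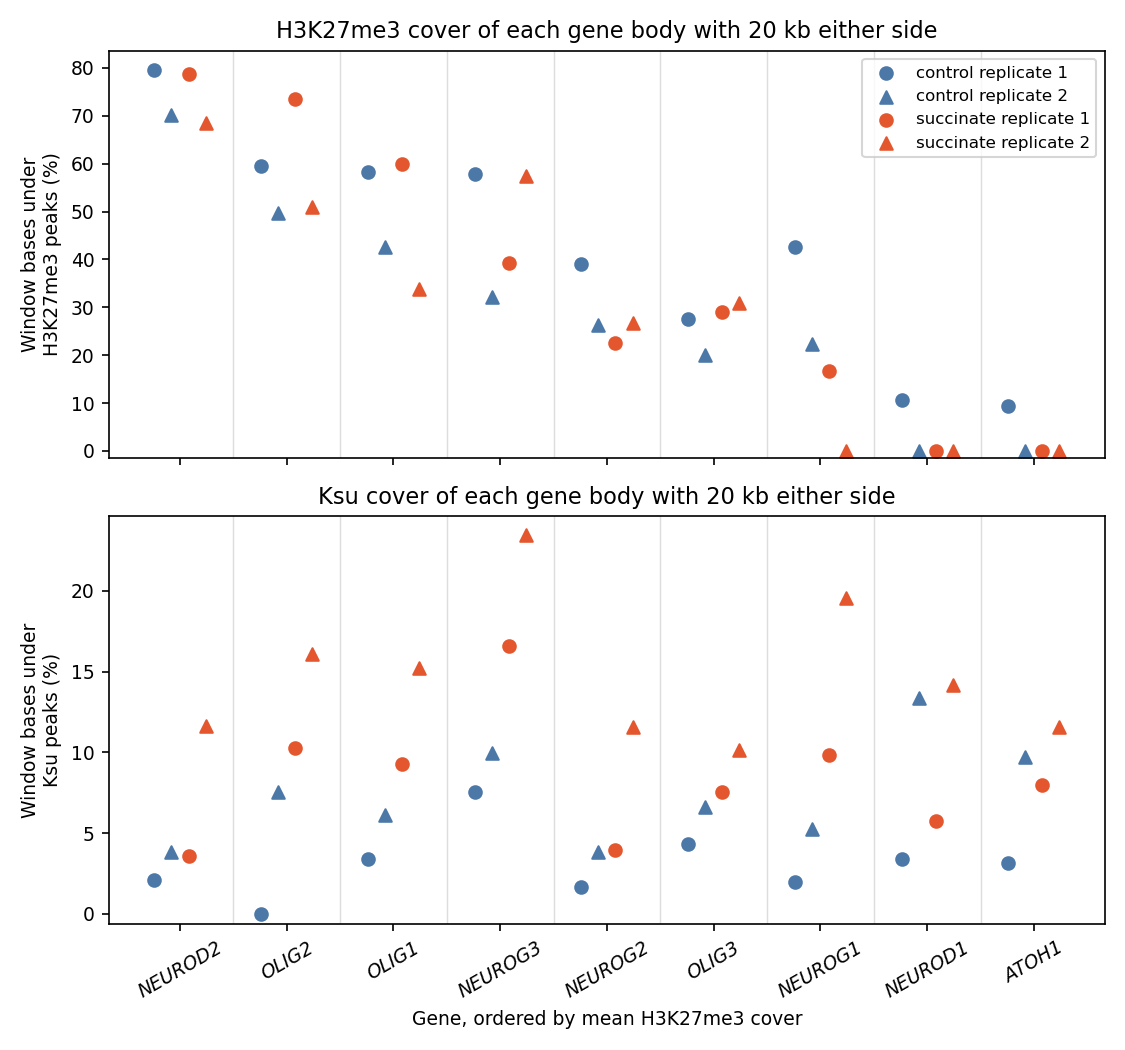
Percent of each gene window under H3K27me3 peaks (top) and Ksu peaks (bottom) in each library; genes run from highest to lowest mean H3K27me3 cover, circles are replicate 1 and triangles replicate 2, blue control and orange succinate. NEUROD2 sits between 68.5% and 79.6% H3K27me3 in the 4 libraries, while NEUROD1 and ATOH1 are at 0 in 3 of 4.

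The genes formed a graded order. By mean H3K27me3 cover over the 4 libraries, with the SD over libraries of both treatments, NEUROD2 came first at 74.3% ± 5.73 (SD, n = 4). OLIG2 followed at 58.4% ± 11.0, OLIG1 at 48.6% ± 12.6, NEUROG3 at 46.6% ± 12.95, NEUROG2 at 28.7% ± 7.15 and OLIG3 at 26.8% ± 4.80 (SD, n = 4 for each). NEUROG1 at 20.4% ± 17.5, NEUROD1 at 2.68% ± 5.37 and ATOH1 at 2.37% ± 4.73 came last (SD, n = 4 for each). Every pair of neighbours in this order had ranges that overlapped. NEUROD2 and OLIG1, which are not neighbours in it, did not overlap. The mean cover of NEUROD2 was above that of 97.6% of all windows and that of ATOH1 above 66.7%, since the window of the median gene had no H3K27me3 peak.

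NEUROG1, a proneural factor of cranial sensory ganglia, lies on chromosome 5 from 135534282 to 135535964. Its window was covered over 42.5% and 22.4% in control replicates 1 and 2 and over 16.6% and 0% in succinate. Both control libraries were higher than both succinate libraries, a pattern found in 4.77% of the 8421 windows with any H3K27me3 peak. The difference was -24.1 percentage points with a pooled SD of 13.1 (two-sided exact permutation p = 0.333, the smallest possible). The covered bases lay mostly beside the gene. In control replicate 1 a peak of 17065 bp reached from inside the body to 15445 bp beyond its higher-coordinate end, which is the upstream side. The peaks of control replicate 2 (9328 bp) and succinate replicate 1 (6925 bp) began at 135543063 and 135544483, upstream of it, and left body and promoter uncovered. Both were weak within their lists, with total signals above those of 6.76% and 11.7% of the peaks and 1.07 and 1.15 times the floor. In succinate replicate 2, which had the highest floor, the nearest peak was 27.9 kb from the body. The part of the floor in the difference was not tested. With equal numbers of peaks from each library the values were 40.9% and 22.4% in the controls and 0% in both succinate libraries. Under a common floor they were 40.9%, 0%, 0% and 0%, and the treatments overlapped. The difference was -14.1 points without control replicate 1.

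NEUROG2, which commits cortical and spinal progenitors to neurons, lies on chromosome 4 from 112513516 to 112516180. Its window was covered over 39.0% and 26.3% in the controls and 22.6% and 26.8% in succinate, and the treatments overlapped. A single peak spanned the gene in each library, of 16649 and 11229 bp in the controls and 9623 and 11438 bp in succinate. In 3 libraries its lower edge fell within 260 bp, just inside the body's downstream end, and the rest of the peak ran upstream over the promoter. Control replicate 1 reached 5272 bp past that end. The highest signal of the peak lay within the body in 4 of 4 libraries, and bases covered in every library ran from 112513854 to 112523476.

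NEUROG3, the factor that sets up endocrine cells of the pancreas, lies on chromosome 10 from 69571485 to 69573422. Cover was 57.7% and 32.1% in the controls and 39.3% and 57.3% in succinate, with overlap. The peak over the gene measured 14643 and 13459 bp in the controls and 16481 and 24050 bp in succinate. Its upper edges lay within 1488 bp of each other in the 4 libraries, while the lower edge spread over 9719 bp. The stretch from 69567555 to 69581013 was covered in every library. With equal numbers of peaks both succinate libraries (39.3% and 57.3%) stood above both controls (34.9% and 32.1%).

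ATOH1, needed for cerebellar granule neurons and inner ear hair cells, lies on chromosome 4 from 93828753 to 93830964. Its only H3K27me3 peak, of 3994 bp in control replicate 1, covered 9.46% of the window and 81.4% of the body. Cover was 0% in control replicate 2 and in both succinate libraries. There the nearest peaks were 551 kb from the body in control replicate 2 and succinate replicate 1 and 5817 kb away in succinate replicate 2. The peak of control replicate 1 was absent from that library's strongest 5531 peaks.

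NEUROD1, which acts in neuronal differentiation and in pancreatic beta cells, lies on chromosome 2 from 181668295 to 181680517. It had the longest body of the 9, 12223 bp, and its window also holds part of CERKL. One peak of 5604 bp in control replicate 1 covered 10.7% of the window, and cover was 0% in the other 3 libraries. That peak lay over the gene start and touched 2.68% of the body. In each of the other libraries the nearest peak was 1363 kb away. NEUROD1 and ATOH1 thus had the same pattern, a narrow peak over the promoter in the library of lowest floor and none elsewhere.

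NEUROD2, a factor of maturing cortical neurons, lies on chromosome 17 from 39603768 to 39607920, and its window also holds part of PPP1R1B. Cover was 79.6% and 70.1% in the controls and 78.8% and 68.5% in succinate, and the treatments overlapped. The peak over the gene was 31513 and 26276 bp wide in the controls and 41572 and 25335 bp in succinate, the widest over any of the 9 genes in each library. In 3 libraries a second peak of 10687 to 11966 bp lay beyond it, and in succinate replicate 1 one peak filled both stretches. The gene's peak ranked above 94.2% and 79.7% of its library's peaks by total signal in the controls and above 93.2% and 80.0% in succinate. Every library covered the same 27744 bases, 62.8% of the window.

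OLIG1 and OLIG2 are neighbours on chromosome 21, with 40955 bp between their bodies, so their values share a locus. OLIG2, required for motor neurons and oligodendrocytes, lies from 33025935 to 33029185 and was covered over 59.5% and 49.6% in the controls and 73.4% and 50.9% in succinate. OLIG1, which acts in oligodendrocyte maturation, lies from 33070141 to 33072413 and was covered over 58.2% and 42.6% in the controls and 59.8% and 33.7% in succinate. Both genes had overlapping treatments. No peak joined the bodies of the genes in any library. Between them, peaks covered 62.3% and 62.1% of the bases in the controls and 61.1% and 32.8% in succinate. The peak over OLIG2 ended within 765 bp at its upper edge in the 4 libraries, and its highest signal lay 1768 to 1801 bp past the body each time. For OLIG1 the highest signal lay 2217 to 2790 bp below the body in the 4 libraries. The lower edge of the OLIG1 peak spread over 11916 bp, and its upper edge fell within 679 bp in 3 libraries. At equal numbers of peaks OLIG2 had 47.3% and 49.6% in the controls and 73.4% and 50.9% in succinate, without overlap.

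OLIG3, which marks dorsal spinal cord and hindbrain progenitors, lies on chromosome 6 from 137492199 to 137494394. Cover was 27.5% and 19.9% in the controls and 29.0% and 30.9% in succinate. Both succinate libraries were higher than both controls, by 6.23 percentage points on average, with a pooled SD of 3.89 (two-sided exact permutation p = 0.333). It was the only gene of the 9 with that order, and 22.1% of the 8421 windows with a peak had it. One peak spanned the body in each library, with widths of 11603 and 8417 bp in the controls and 12240 and 13037 bp in succinate. Its upper edge fell within 25 bp in 3 libraries and within 787 bp in all 4. The lower edge spread over 3833 bp, and the body was covered from end to end in each library. The peak of control replicate 2 was near its list's floor, at 1.10 times that value. The difference was 2.45 points without control replicate 2 and 10.00 without control replicate 1. With a common floor the gene had 0% in 3 libraries and 30.9% in succinate replicate 2.

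**Figure D2:**
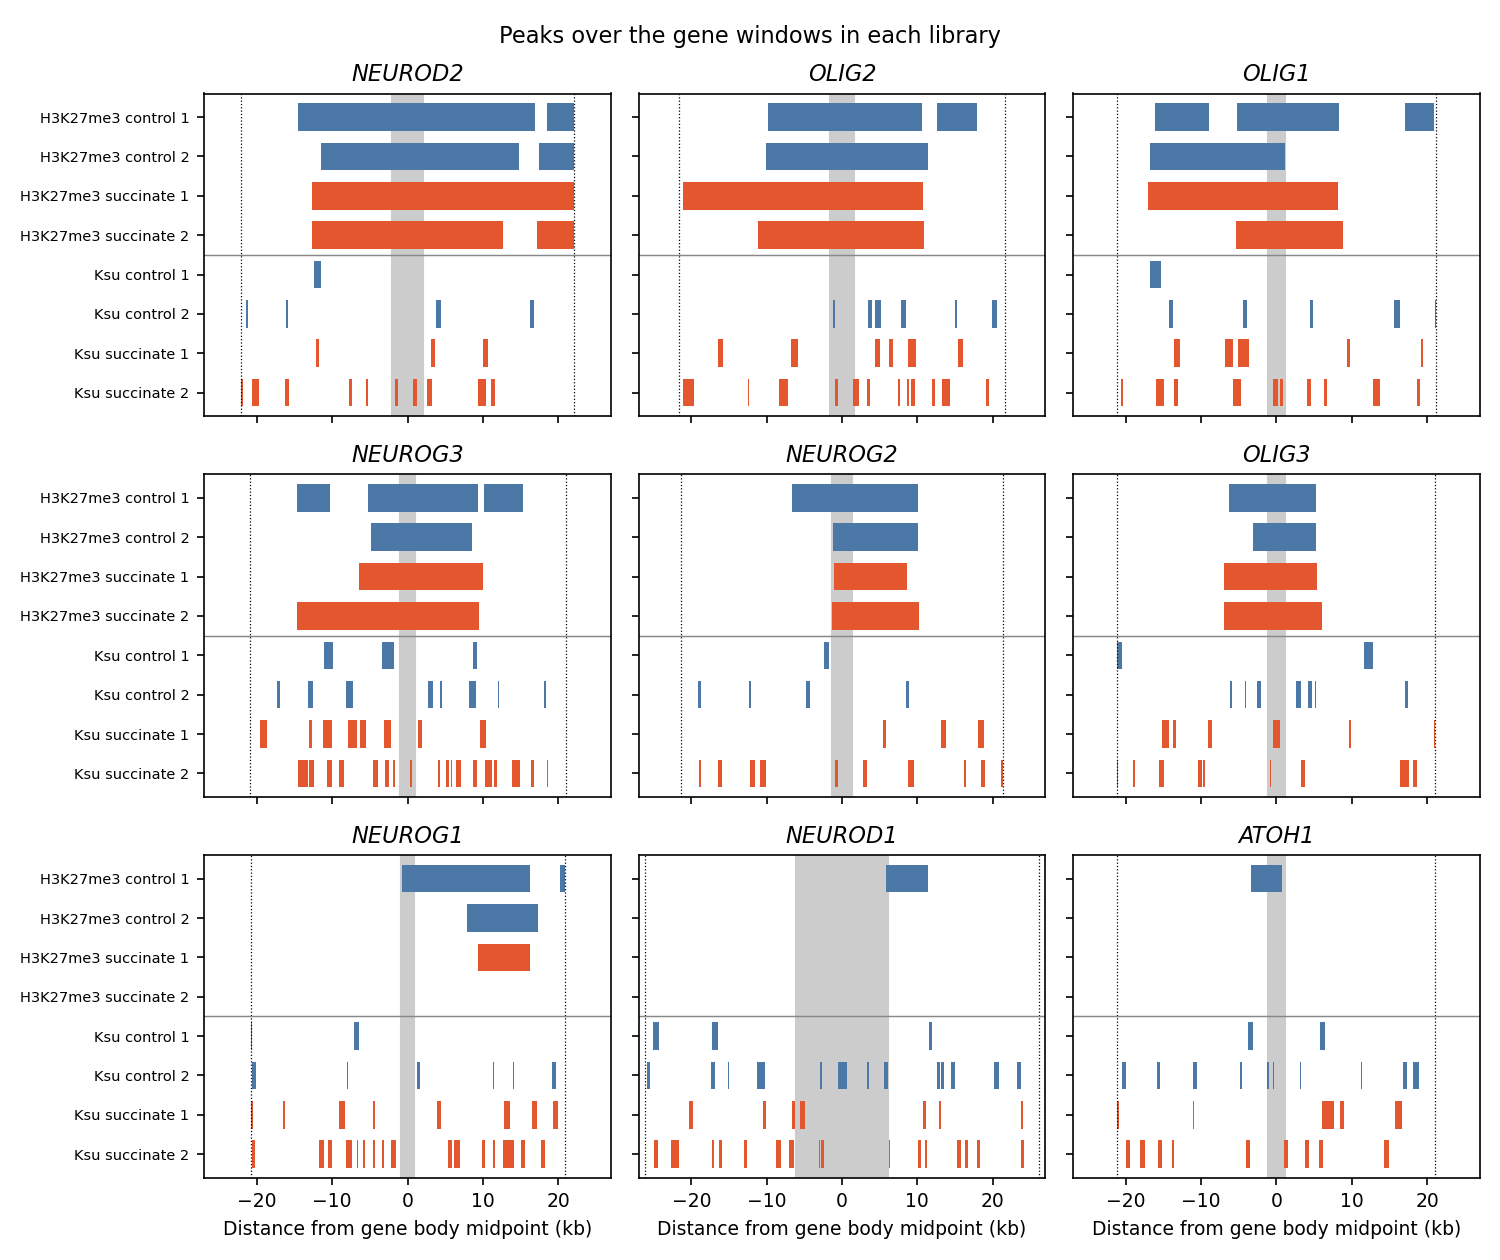
Peaks over each gene window in the 8 libraries, plotted by distance in kb from the middle of the gene body and in the direction of increasing coordinate; grey bands are gene bodies, dotted lines the window ends, blue bars control and orange bars succinate peaks. H3K27me3 peaks (upper 4 rows) span whole bodies in 5 genes, and Ksu peaks (lower 4 rows) are short, at most 1582 bp, and fall at different places in different libraries.

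Over the 9 genes together, H3K27me3 cover was 35.4% ± 9.43 (SD, n = 2) in the controls and 32.1% ± 3.97 (SD, n = 2) in succinate. The difference of -3.31 percentage points was below the pooled SD of 7.24. At a common floor the difference was 5.38 points against a pooled SD of 1.31, with 25.6% and 23.04% in the controls and 30.04% and 29.3% in succinate. The whole lists at that floor also spanned more of the chromosomes in succinate, 4.14% and 4.57% against 3.06% and 3.06%. With all peaks, leaving out control replicate 1 turned the difference to 3.36 points, and leaving out control replicate 2 made it -9.98 points. Divided by the share of the chromosomes that each library covered, the windows held 6.46 and 7.52 times the chromosome level in the controls and 6.16 and 6.42 times in succinate. The treatments did not overlap on this scale, succinate minus control being -0.15 on the log2 scale with a pooled SD of 0.11. This difference was -0.039 without control replicate 2 and -0.26 without control replicate 1. At a common floor it was -0.22, with 8.35 and 7.54 times in the controls and 7.25 and 6.42 times in succinate. The treatments overlapped on this scale for the gene bodies alone, with 5, 50 or 100 kb either side, and with the strongest 50% of peaks. The median width of overlapping peaks was 9568 and 12654 bp in the controls and 16481 and 14255 bp in succinate. Succinate libraries were higher by 0.48 on the log2 scale (pooled SD 0.23) with fewer peaks, 7 and 7 against 16 and 8, and by 0.28 without control replicate 1. At a common floor the medians were 17065 and 18025 bp in the controls and 25292 and 14255 bp in succinate, the treatments overlapped, and the log2 difference was 0.11. Over the whole lists, with all peaks, median width was 6767 and 14406 bp in the controls and 11488 and 17454 bp in succinate. Each succinate list was thus wider than the control list of the same replicate number, so greater width was not particular to these genes. With equal numbers of peaks, 3 of the 7 genes with a peak (NEUROG3, OLIG2 and OLIG3) were higher in both succinate libraries, against 43.7% of windows with a peak, and 1 (NEUROG1) was lower in both, against 5.25%. At a common floor 2 of 7 (NEUROG3 and OLIG2) were higher, against 50.1%, and none lower, against 2.36%.

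H3K27me3 cover was higher near the genes than farther out. For the gene bodies alone the ratio to the chromosome level was 9.52 and 13.1 in the controls and 8.74 and 11.0 in succinate. With 5 kb either side it was 11.3, 13.1, 10.1 and 12.6 in the same order. With 100 kb either side it was 3.47, 4.33, 3.69 and 3.91. Each library thus had a higher ratio close to the genes than at 100 kb. With 5 kb added the pooled ratio was at or above that of the bodies alone, a comparison weighted by body length. NEUROD1 holds 12223 of the 32594 body bases, and its body was covered over 2.68% in control replicate 1 and 0% elsewhere. In 4 of 4 libraries 5 of the 9 bodies were covered from end to end. NEUROG1 did not share the fall with distance. Its cover with 100 kb either side was 53.0% and 43.7% in the controls and 42.1% and 34.3% in succinate. These values were above those with 20 kb in each library.

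**Figure D3:**
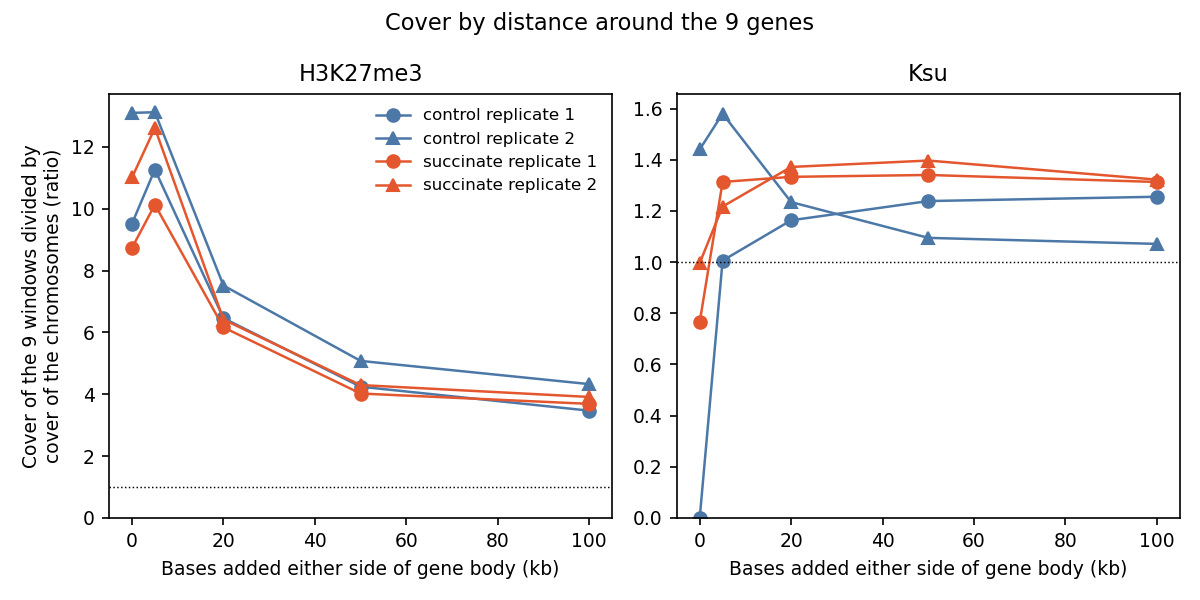
Pooled cover of the 9 windows divided by the cover of the chromosomes (y axis, ratio) against the bases added either side of the gene bodies (x axis, kb), 1 line per library. H3K27me3 falls from 8.74 to 13.1 at the bodies to between 3.47 and 4.33 at 100 kb, while Ksu stays between 1.07 and 1.40 from 20 kb outwards; the dotted line marks the chromosome level.

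Ksu peaks over these genes were short and scattered. Over the 4 libraries 246 peaks overlapped the windows, with a median width of 522 bp and a range of 78 to 1582 bp, where the 38 H3K27me3 peaks ranged from 3871 to 41572 bp. A Ksu peak overlapped the window in 4 of 4 libraries for 8 of 9 genes, all but OLIG2, against 54.7% of all windows. Ksu peaks covered 3.06% and 7.49% of window bases in the controls and 8.22% and 14.8% in succinate. The difference was 6.22 percentage points and the pooled SD 3.96, and it was 2.94 without succinate replicate 2 and 9.50 without succinate replicate 1. The nearest libraries of the treatments, 7.49% and 8.22%, were separate. Cover followed the library's whole list, which spanned 2.63% and 6.07% of the chromosomes in the controls and 6.16% and 10.8% in succinate. Relative to that level the windows held 1.16 and 1.23 times as much in the controls and 1.33 and 1.37 times in succinate. Succinate minus control was 0.17 on the log2 scale, with a pooled SD of 0.047. With 5 kb either side of the bodies this log2 difference was 0.0042 and the treatments overlapped. With equal numbers of peaks it was 0.74, from 1.16 and 1.00 times in control to 1.86 and 1.76 times in succinate. A rise was not particular to these genes. With 20 kb either side and all peaks, 49.6% of windows with a Ksu peak were higher in both succinate libraries relative to the chromosomes, and 4.95% lower. Median Ksu cover of all gene windows was 2.28% in control and 8.29% in succinate, against 4.76% and 9.96% for the 9 genes. The Ksu peaks over the 9 windows had median widths of 720 and 465 bp in the controls against 623 and 488 bp with succinate, and the treatments overlapped.

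By gene, Ksu cover was higher in both succinate libraries than in both controls for 6 of 9 genes and lower for none. This order held for 67.5% of all 19564 windows with a Ksu peak, so the count was near the background, and 0.256% were lower in both. NEUROG1 was the only gene of the 9 with lower H3K27me3 and higher Ksu in both succinate libraries, against 3.42% of windows with peaks of each antibody. NEUROG3 had the highest Ksu cover, 7.57% and 9.96% in the controls and 16.6% and 23.5% in succinate, and its mean was above that of 99.3% of all windows. The difference of 11.2 percentage points exceeded the pooled SD of 3.64 (two-sided exact permutation p = 0.333). NEUROG1 had 1.99% and 5.25% in the controls and 9.84% and 19.5% in succinate, and its difference of 11.1 points was 6.22 without succinate replicate 2. OLIG2 had no Ksu peak in control replicate 1, 7.54% in control replicate 2, and 10.3% and 16.1% in succinate. OLIG1 had 3.41% and 6.11% in the controls and 9.28% and 15.2% in succinate. These 4 genes showed the widest separation of the treatments. OLIG3 (4.31% and 6.63% against 7.57% and 10.2%) and NEUROG2 (1.69% and 3.81% against 3.94% and 11.5%) were separated by less than 1 percentage point at their nearest libraries. NEUROD1 had 3.40% and 13.4% in the controls and 5.76% and 14.1% in succinate, with overlap. ATOH1 had 3.14% and 9.73% against 7.98% and 11.6%, and NEUROD2 had 2.11% and 3.80% against 3.58% and 11.6%, and in both the treatments overlapped. After division by each library's chromosome level, NEUROG1, OLIG1 and OLIG2 remained higher in both succinate libraries, 3 of 9 against 49.6% of windows, and none was lower, against 4.95%. NEUROG1 then stood at 0.755 and 0.866 times the chromosome level in the controls and at 1.60 and 1.81 times in succinate. With equal numbers of peaks, 4 of 9 genes (NEUROG1, NEUROG2, NEUROG3 and OLIG2) were higher in both succinate libraries, against 30.7% of windows. NEUROD1, at 3.40% and 5.51% against 1.28% and 1.55%, was lower in both, against 7.01%. With a common floor 3 (NEUROG2, NEUROG3 and OLIG2) were higher in both, against 17.4%, and none was lower, against 0.354%.

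Ksu over the gene bodies differed between libraries. Peaks covered 0% and 8.74% of their bases in the controls and 4.72% and 10.7% in succinate. This was 1.44 times the chromosome level in control replicate 2 and 0.766 and 0.996 times in succinate. In control replicate 2 the covered bodies were those of NEUROD1 (18.2%), ATOH1 (11.2%), OLIG2 (9.69%) and OLIG1 (2.86%). NEUROD1 alone holds 12223 of the 32594 body bases, so the pooled value rests largely on it. In control replicate 1 no body of the 9 was touched by a Ksu peak, against 7.8% of bodies of 13 kb or less. Bodies touched numbered 4 in control replicate 2 (37.4% of bodies of that size), 2 in succinate replicate 1 (37.5%) and 8 in succinate replicate 2 (59.2%). Neither control library touched 5 of the 9, against 59.4% of bodies of that size. The body of NEUROG1 was touched in no library. The largest shares were 47.6% of the OLIG1 body in succinate replicate 2 and 39.6% of the OLIG3 body in succinate replicate 1. In neither gene did the other succinate library exceed 4.60%. The OLIG1 share came from peaks near the bottom of their list, with total signals above those of 0.951% and 0.581% of its peaks. The OLIG3 peak stood above 77.1% of its library's peaks. Of the 7 listed promoters, that of ATOH1 was under a Ksu peak over 78.7% of its length in control replicate 2, and that of NEUROD1 over 36.3% in control replicate 2 and 55.7% in succinate replicate 2. The ATOH1 peak had a total signal above that of only 1.77% of its library's peaks. The NEUROD1 peaks stood above 44.2% in control replicate 2 and 4.65% in succinate replicate 2. These promoters of ATOH1 and NEUROD1 had no H3K27me3 outside control replicate 1, and neither did that of NEUROG1, which had no Ksu peak. The other 5 promoters were free of Ksu peaks in 4 of 4 libraries. Among all promoters the share under a Ksu peak was 2.01% and 7.54% in the controls and 7.74% and 12.7% in succinate. No base of any of the 9 windows was under Ksu peaks in 4 libraries, and bases under peaks in 3 libraries made up at most 4.15% of a window, that of NEUROG3.

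Ksu was also compared inside and outside H3K27me3 peaks of the same treatment and replicate number within the windows. Bases under H3K27me3 were under Ksu peaks over 3.28% and 7.29% in the controls and 9.74% and 16.5% in succinate. Window bases outside H3K27me3 were under Ksu over 2.90% and 7.57% in the controls and 7.40% and 14.1% in succinate. The ratio of inside to outside was 1.13 and 0.963 in the controls and 1.32 and 1.17 in succinate. Both succinate libraries had higher ratios than both controls, and the ratios ran from 0.963 in control replicate 2 to 1.32 in succinate replicate 1. The nearest were 1.13 in control replicate 1 and 1.17 in succinate replicate 2. Bases inside H3K27me3 numbered 165250 and 112884 in the controls and 137095 and 115069 in succinate. The replicate numbers are not stated to pair libraries, and no such ratio is given for all windows.

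Genes that work with the neurogenic factors were examined through lists of names. Of 6 further genes of the atonal family, 2 had an H3K27me3 peak over the window in 4 libraries and 3 in none. Mean cover was 100% for BHLHE23, 71.3% for ATOH8, and 0 for NEUROD4, NEUROD6 and BHLHA15. The median cover was 7.42%, against 28.7% for the 9 neurogenic genes and 0 for all genes. Among 22 bHLH genes of other tissues, 11 had a peak in 4 libraries and 5 in none, with a median of 17.2%. TCF15 (79.4%) and ASCL2 (76.1%) were highest, and TWIST1, LYL1 and the neuronal genes NHLH1, NHLH2 and FERD3L had none. Of 12 E protein partners and inhibitors, 4 had a peak in 4 libraries and 3 in none (median 18.1%). The Notch effectors HEYL (63.7%) and HES5 (58.9%) were highest, while the partners TCF4 and TCF12 and the inhibitor ID1 had none. The other E protein partner, TCF3, had a peak in 4 libraries (22.1%). Of 9 Notch ligands and receptors, which restrain neurogenesis between neighbouring cells, 7 had a peak in 4 libraries (median 43.0%), with DLL1 at 75.6% and JAG2 at 73.0%, and JAG1 and NOTCH2 had none. Of 20 genes acting downstream in neurons, inner ear, endocrine pancreas or oligodendrocytes, 11 had a peak in 4 libraries and 4 in none (median 21.4%). LHX2 (79.2%) and MNX1 (72.2%) were highest, and ELAVL4, GFI1 and the neuronal cytoskeleton genes DCX and STMN2 had none.

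The same lists were set against all windows for the treatments. H3K27me3 cover was higher in both succinate libraries for 0 of 3 atonal relatives with a peak, 2 of 17 other bHLH genes, 2 of 9 partners and inhibitors, 1 of 7 Notch genes and 4 of 16 downstream genes, where all windows with a peak gave 22.1%. It was lower in both for 0, 2, 0, 0 and 3 of them, where all windows gave 4.77%. Ksu cover was higher in both succinate libraries for 5 of 6, 11 of 22, 10 of 12, 8 of 9 and 10 of 20 genes of these lists, against 67.5% of windows.

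**Figure D4:**
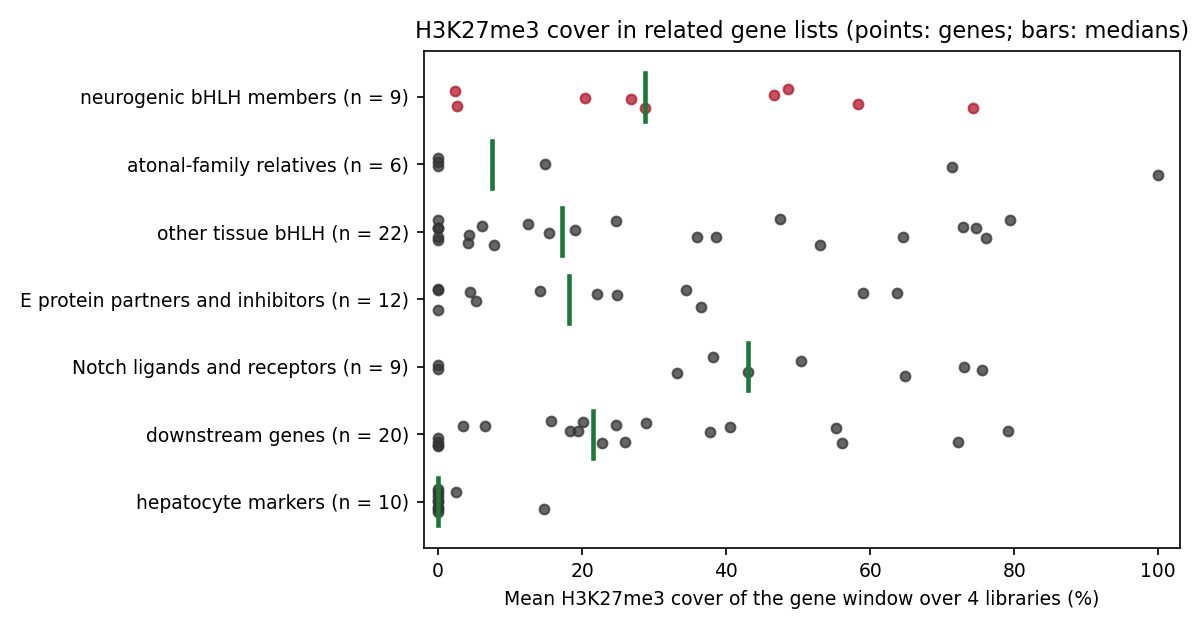
Mean H3K27me3 cover of each gene window over the 4 libraries (x axis, %), 1 point per gene, for the 9 neurogenic bHLH genes and 6 related or contrasting lists; green bars are medians. The neurogenic genes have a median of 28.7%, Notch ligands and receptors 43.0% and hepatocyte markers 0.

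The genes most like the average of the 9 in all 8 libraries were found by Euclidean distance between percent covers, among 19875 genes more than 1 Mb from any of them. They were PIK3R5 (5.71 percentage points away), PRMT8 (5.77), ACCSL (6.83), PLEKHG3 (7.18) and FAM107A (7.59). In all, 201 genes were closer to that average than NEUROG2, the closest of the 9 at 15.6 points, and NEUROD2 was farthest at 80.3 points. The 9 genes thus spread widely around their own mean.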

How the data were processed

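Peak lists of 8 CUT&Tag libraries were used. Peaks were called with SEACR on hg38, per the submitters' processing notes, and the deposited lists, 1 per library, are of its stringent mode per their file names. The deposited signal of each peak (total and highest) was scaled by the authors by a factor that is not given in the sources used here, as are aligner, control track and threshold. Within each library the highest-signal values were all (100%) whole multiples of 1 smallest unit, called its step (tolerance 0.02), and totals were compared between libraries only in steps.

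Peaks on the 24 chromosomes were intersected (1 bp or more) with RefSeq gene bodies of GRCh38.p14 plus 20 kb either side. Cover is the percent of bases under peaks, and chromosome length the last end of a peak or gene (3056 Mb in all). Treatments were compared with two-sided exact permutation tests over 6 arrangements. No p is given for pooled values, since the genes and the lists were chosen with earlier results of these data known. All 9 genes are named, with the 2 highest and 2 lowest genes of each list and the 5 nearest in cover. TCF3 is named beside the other E proteins.

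Alternatives were windows of 0, 5, 50 and 100 kb, equal numbers of peaks by total signal, a common floor in steps, the 50% of peaks with the highest totals, peaks of 500 bp or more, merging within 1 kb, each library left out, and a replicate block. Promoter sequences of 300 bases came from RefSeq. Python 3.11.15, NumPy 2.4.6, pandas 2.3.3 and Matplotlib 3.10.9 were used, and the interval code was tested on simulated peaks.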

Additional observations from a re-analysis of the deposited data

Results flagged for a closer look

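In the NEUROG1 window the antibodies moved in opposite directions, with H3K27me3 lower in both succinate libraries than in both controls (-24.1 percentage points) and Ksu higher (11.1 points). The first was -14.1 points without control replicate 1, and the second 6.22 without succinate replicate 2 and 15.9 without succinate replicate 1. The difference between these effects was 35.2 points (exact permutation p = 0.0556, two-sided, the smallest that 36 arrangements allow), and the other 8 genes did not show opposite directions without overlap. Of the 8421 windows with a peak of each antibody, 3.42% had this pattern. At a common floor the treatments overlapped for both antibodies, with 40.9%, 0%, 0% and 0% H3K27me3 and 1.99%, 0%, 0% and 3.24% Ksu. The part of the peak floor in this pattern was not tested.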

How the results depend on the processing

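Of 80 alternative values for the 6 pooled results, 69 moved by no more than the pooled SD and 11 by more. Many of the 69 were fixed by arithmetic. With 2 libraries per group, leaving a library out cannot move a difference by more than the pooled SD. The 500 bp limit could not alter the H3K27me3 values, whose narrowest peak was 3871 bp. The count also ignores changes of sign, such as that of H3K27me3 cover from -3.31 to 3.36 points without control replicate 1. At a common floor the H3K27me3 cover difference was 5.38 points, the Ksu cover difference 0.778 points and the H3K27me3 width difference 0.11 (log2). With equal numbers of peaks the Ksu values were 1.60 points for cover, 0.42 for width and 0.74 for relative cover. Relative Ksu cover was 0.0042 with 5 kb and 0.23 with 50 kb either side, 0.56 with only the strongest 50% of peaks and 0.26 with peaks of 500 bp or more. Relative H3K27me3 cover was -0.028 with 100 kb either side and -0.22 at a common floor. Leaving out each library gave -9.98 to 3.36 points for H3K27me3 cover, 2.94 to 9.50 points for Ksu cover, 0.28 to 0.68 for H3K27me3 width, -0.38 to 0.25 for Ksu width, -0.26 to -0.039 for relative H3K27me3 cover and 0.13 to 0.22 for relative Ksu cover. For OLIG3 the Ksu difference changed direction, to -3.39 points with 5 kb either side and to -0.844 at a common floor. The cause was not tested. The shared replicate numbers are not stated to pair the samples, and the replicate block left each difference equal by construction (-3.31 points for H3K27me3 cover, 6.22 for Ksu). No Ksu ratio or width could be formed where a control library had no peak, at a common floor and for gene bodies alone. The unknown depth limits every absence of a peak to the lists' own floors.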
